A study of Homo sapiens with 27 samples.

Results

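The caveolae coat genes described here were CAV1, CAV2, CAVIN1, CAVIN2, CAVIN3, EHD2, PACSIN2 and PACSIN3. They were taken by name from the deposited gene counts, without a cut on their values, and all 8 were found among 57165 genes. The list was drawn up with earlier results of these data known. RNA was sequenced from SUM159 and MDA-MB-231, triple negative breast cancer (TNBC) cell lines of mesenchymal character. Each line was used untransduced (wild type) and after lentiviral transduction with dCas9-KRAB, a catalytically dead Cas9 joined to a transcriptional repressor domain, with puromycin selection. The transduced cells carried no targeting guide (No gRNA), gRNA 4, or the pool of gRNAs against the ZEB1 promoter (All gRNA), and the study's methods describe replicate libraries as individual clones. Every group held 3 libraries. SUM159 wild type, No gRNA, gRNA 4 and All gRNA cells were sequenced in run 1, while run 2 held a second set of SUM159 wild type libraries and every MDA-MB-231 library. For 6 MDA-MB-231 libraries the labels conflict, so they were kept as 2 groups of unassigned guide. In set 1 the titles name gRNA 4 and the column names the pool, and in set 2 the reverse holds.

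Caveolae are flask-shaped pits of the plasma membrane that buffer membrane tension and gather signalling proteins and lipids. Caveolins are hairpin proteins that insert into the inner leaflet and oligomerise, cavins are soluble proteins that trimerise and cover the bulb from the cytosol, and EHD2 and the pacsins (also called syndapins) sit at the neck, where the pit meets the flat membrane. CAV1 and CAVIN1 are both needed for a caveola to form in non-muscle cells, while the other members adjust number, size or stability. CAV1 is abundant in mesenchymal and basal-like breast cancer lines, which is the setting of these data.

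Across the 27 libraries the total was between 15461200 and 21473757 estimated counts. ZEB1, the targeted gene, stood at 70.8 to 77.3 CPM (counts as a share of the TMM-scaled library total) in the SUM159 No gRNA libraries, 0.376 to 1.03 under the pool and 2.57 to 4.56 under gRNA 4. The MDA-MB-231 libraries had 104 to 122 CPM with No gRNA, 4.75 to 5.74 in set 1 and 3.71 to 5.43 in set 2, so both sets carried the repression whatever their guide. The labelled cell type was checked on other genes. Of the mesenchymal markers, VIM (vimentin) had group means from 1321 to 4079 CPM and CD44 from 256 to 2398, but CDH2 (N-cadherin), at 66.6 to 135 in SUM159, was at 0.199 to 1.24 in MDA-MB-231. The epithelial keratins were present in both lines, KRT8 at 88.1 to 1012 CPM and KRT18 at 154 to 1103, while EPCAM was at most 1.12 in SUM159 but in MDA-MB-231 had 290.3 (set 1) and 381 (set 2) against 12.6 in the control. ESR1 and PGR, the hormone receptors missing in TNBC, had means of at most 0.121 and 0.320 CPM. ERBB2, the other receptor listed as low in TNBC, was present in every group, with means from 42.1 to 63.1 CPM. Caveolae are abundant in endothelium, fat and muscle, and 6 markers of those cells (PECAM1, VWF, CDH5, PLIN1, ADIPOQ and DES) summed to between 0.928 and 8.33 CPM in a library, with VWF and DES at 0 in every transduced SUM159 library. PECAM1, the endothelial adhesion molecule, made up most of that sum where it was highest. In SUM159 its mean was 2.67 CPM with No gRNA, 6.57 with the pool and 6.08 with gRNA 4, and it passed the moderated test with All gRNA (log2 fold change 1.42, adjusted p = 0.0393, limma). In these bulk samples, fewer cells that express a gene and less RNA per cell cannot be told apart.

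The promoters of CAV1, CAV2 and CAVIN2 are shown because CAV1 and CAV2 are neighbours whose changes against No gRNA had opposite signs in 3 of the 4 comparisons, and CAVIN2 had the largest response of the members in 3 of the 4 comparisons with No gRNA. CAV1 (ENSG00000105974) spans 116524994 to 116561179 on the plus strand of chromosome 7 in GRCh38, and CAV2 (ENSG00000105971) spans 116287380 to 116508541 on the same strand, which leaves 16452 bases between them. CAVIN2 (ENSG00000168497) spans 191834310 to 191847088 on the minus strand of chromosome 2. The stretches lie within the 250 bases before the canonical start site of each gene, outside its annotated exons, and come from RefSeq on GRCh38.p14, read along the strand of the gene, from chr7:116524786-116524993, chr7:116499488-116499737 and chr2:191847089-191847338.
CAV1: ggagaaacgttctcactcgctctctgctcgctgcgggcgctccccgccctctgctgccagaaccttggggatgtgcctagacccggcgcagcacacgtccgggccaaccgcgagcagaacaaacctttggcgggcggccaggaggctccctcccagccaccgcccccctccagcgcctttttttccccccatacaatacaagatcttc
CAV2: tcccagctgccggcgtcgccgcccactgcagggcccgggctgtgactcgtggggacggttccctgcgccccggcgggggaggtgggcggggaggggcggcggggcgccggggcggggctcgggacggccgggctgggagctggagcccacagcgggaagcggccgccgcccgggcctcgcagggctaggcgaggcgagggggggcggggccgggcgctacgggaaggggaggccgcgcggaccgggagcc
CAVIN2: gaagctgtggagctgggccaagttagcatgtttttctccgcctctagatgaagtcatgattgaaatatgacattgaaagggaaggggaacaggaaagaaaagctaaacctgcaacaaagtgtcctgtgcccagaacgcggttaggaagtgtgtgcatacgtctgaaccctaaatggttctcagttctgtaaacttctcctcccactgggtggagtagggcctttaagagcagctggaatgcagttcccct
RefSeq windows of 300 bases (250 before and 50 after a start) were at hand for 5 members, CAV1, CAV2, CAVIN2, EHD2 and PACSIN2. CAVIN1, CAVIN3 and PACSIN3 had no entry. The hexamer CACCTG or its reverse complement CAGGTG, the E-box that ZEB1 is known to bind, was in 0 of the 5 windows at the canonical start, and 20.6% of all 35116 windows held it. Of the 13 windows of these members, 2 held it, both at further starts of PACSIN2. Capitals would mark the hexamer, so the printed stretches have none. The CAV2 window was 82.7% G or C with 43 CG dinucleotides, the CAV1 window 61.7% with 18, and the CAVIN2 window 49.3% with 5, against medians of 58.7% and 14 over all windows.

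Divided by the length of the canonical transcript (CPM per kilobase), CAV1 was the most abundant member in 8 of the 9 groups. In wild type MDA-MB-231 it had 346 ± 5.12 (SD, n = 3), followed by CAVIN1 at 186 ± 3.41, CAVIN2 at 78.1 ± 2.59, CAVIN3 at 75.3 ± 5.26 and CAV2 at 45.7 ± 1.77. The neck proteins were lower there, with EHD2 at 36.0 ± 5.60, PACSIN2 at 24.9 ± 2.35 and PACSIN3 at 22.5 ± 0.162. In this order the ranges of CAVIN2 and CAVIN3 overlapped, as did those of PACSIN2 and PACSIN3. SUM159 had a different order. In its wild type libraries of run 1, CAV1 had 260.2 ± 3.17 CPM per kilobase and CAVIN1 had 73.9 ± 1.49, but EHD2 came next at 53.8 ± 7.99. CAVIN3 (10.7 ± 1.02) and CAVIN2 (10.4 ± 0.157) had the lowest means. The range of CAVIN3 overlapped those of CAVIN2 and of PACSIN3 (12.6 ± 1.57). In run 2 the SUM159 wild type libraries had CAVIN1 on top at 83.0 ± 1.53, above CAV1 at 70.7 ± 3.93 and EHD2 at 70.5 ± 1.38, whose ranges overlapped.

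**Figure D1:**
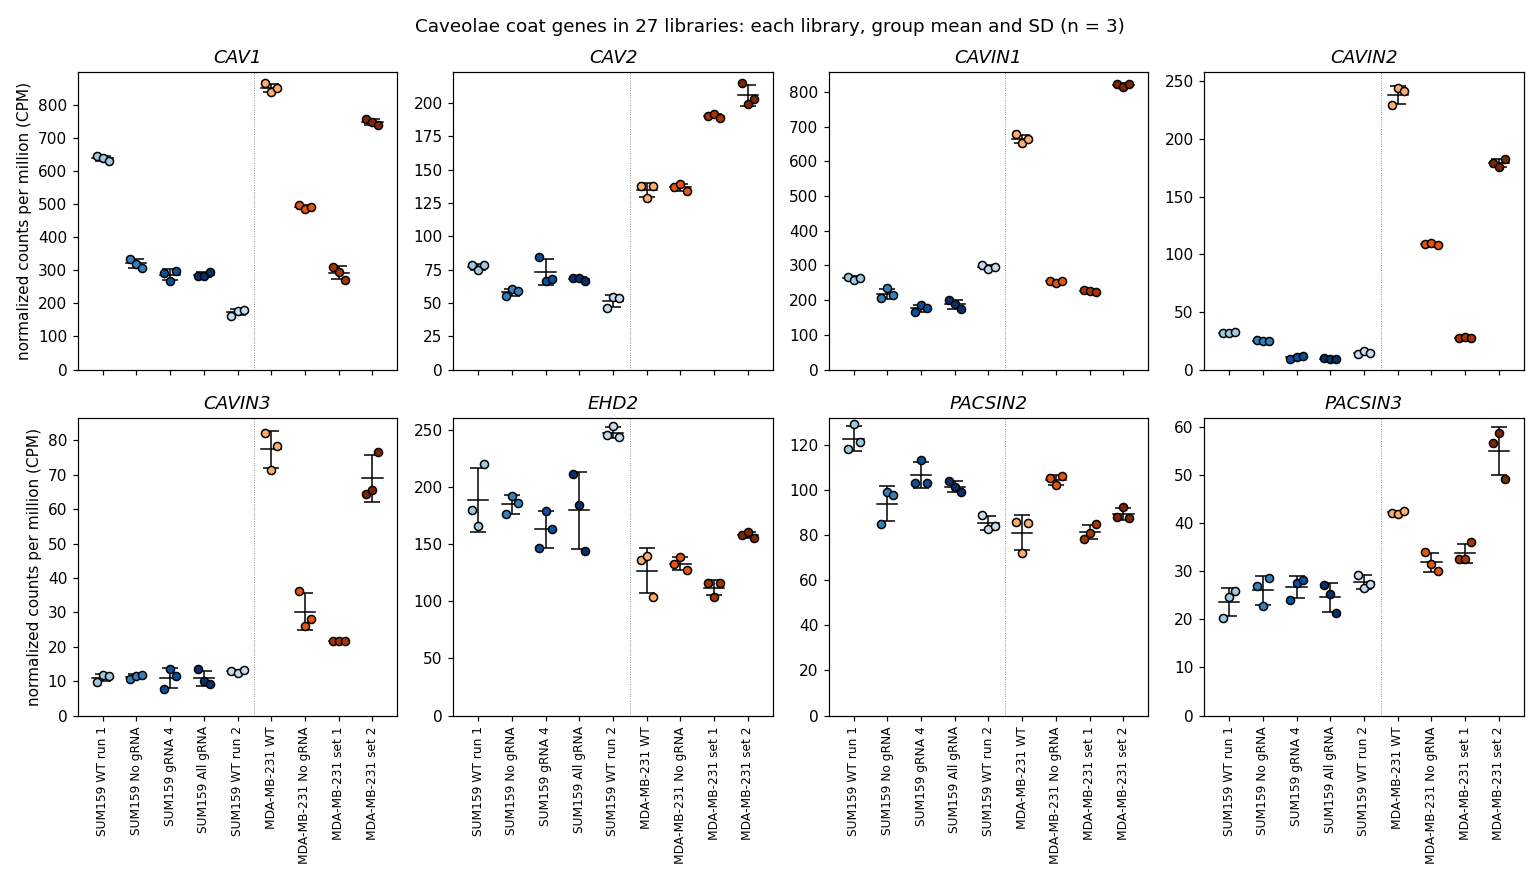
Normalized CPM (y axis from 0, a separate scale for each gene) of the 8 coat genes in the 9 groups (x axis), with SUM159 in blue and MDA-MB-231 in orange and brown. Points are libraries, horizontal lines group means and bars the SD (n = 3). CAV1, CAVIN1, CAVIN2 and CAVIN3 show 2 high groups in MDA-MB-231, wild type and set 2, and 2 lower ones, No gRNA and set 1, whereas CAV2 is highest in both sets.

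The first question was how many members changed on ZEB1 repression. A gene was called by TREAT when its change was beyond 1 on the log2 scale at an adjusted p under 0.05, and by the moderated test when it differed from 0 at that threshold, both from the voom-limma fit of the 12 libraries of a line. In SUM159 with All gRNA, TREAT called 0 of 8 members (background 0.396% of 15147 genes) and the moderated test called 2, CAVIN1 and CAVIN2, both lower (background 10.8%). With gRNA 4, TREAT again called 0 of 8 (background 0.390%), and the moderated test called 4, of which CAV1, CAVIN1 and CAVIN2 were lower and CAV2 higher (background 11.0%). No member moved by more than 0.18 on the log2 scale between All gRNA and gRNA 4, and TREAT (background 0.00%) and the moderated test (background 0.944%) called 0 of 8, also at an unadjusted p under 0.05.

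In MDA-MB-231 set 1, TREAT called CAVIN2 alone, lower (background 1.47% of 15721 genes). The moderated test called 6 members, with CAV1, CAVIN1, CAVIN2, CAVIN3 and PACSIN2 lower and CAV2 higher (background 37.8%). In set 2, TREAT called CAVIN1 alone, higher (background 4.14%), and the moderated test called all 8, with 7 higher and PACSIN2 lower (background 52.4%). The median log2 fold change of the members was -0.30 in set 1 and 0.69 in set 2, where all genes tested had a median of -0.01 in both. In SUM159 the medians were -0.08 with All gRNA and -0.13 with gRNA 4, against 0.00 over all genes. The pair of targeted groups in each line was compared with the same 3 No gRNA libraries, so the comparisons within a line are not independent.

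**Figure D2:**
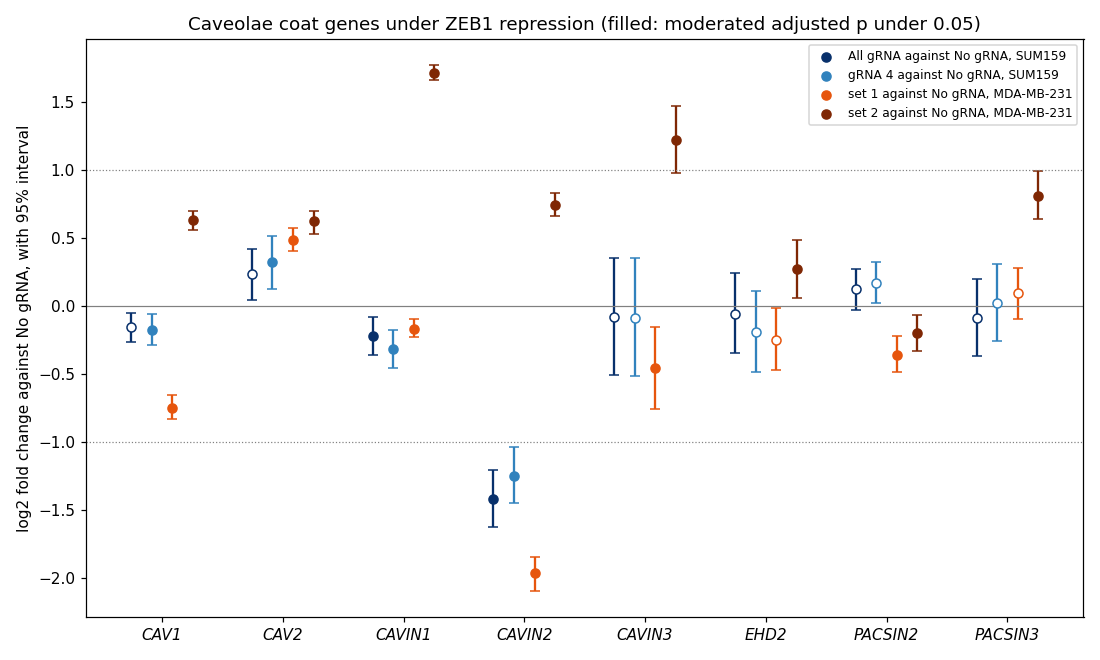
Log2 fold change against No gRNA (y axis) with its 95% interval for each coat gene (x axis) in the 4 comparisons with No gRNA. Filled points passed the moderated test at an adjusted p under 0.05 and dotted lines mark a change of 1. CAVIN2 lies below -1 in both SUM159 groups and in set 1 but at 0.74 in set 2, and CAV2 lies above 0 in all 4.

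CAV1, the structural caveolin, differed between the 2 sets more than between either SUM159 group and its control. SUM159 No gRNA libraries had 335, 319 and 308 CPM, gRNA 4 libraries 293, 267 and 298, and All gRNA libraries 282, 283 and 295. The targeted libraries all lay below the No gRNA libraries, by a small amount: the log2 fold change was -0.18 ± 0.0514 (SE) with gRNA 4 (adjusted p = 0.0497) and -0.16 ± 0.0511 with All gRNA (adjusted p = 0.0667, moderated test of limma). The gRNA 4 call was lost when gRNA 4 replicate 1, 2 or 3 or No gRNA replicate 1 or 2 was left out, with adjusted p from 0.0550 to 0.165. In MDA-MB-231 CAV1 stood at 497, 485 and 492 CPM with No gRNA, 311, 294 and 272 in set 1, and 756, 747 and 740.0 in set 2. These groups did not overlap, and the changes had opposite signs: -0.75 ± 0.0382 in set 1 (adjusted p = 7.05e-08) and 0.63 ± 0.0315 in set 2 (adjusted p = 2.53e-08). Set 2 exceeded set 1 by 1.38 ± 0.0364 (TREAT adjusted p = 3.19e-05).

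CAV2, which oligomerises with CAV1 and depends on it to reach the cell surface, had the opposite sign to CAV1 in 3 of the 4 comparisons. In SUM159 it had 55.0, 60.3 and 59.0 CPM with No gRNA, 84.3, 66.4 and 68.3 with gRNA 4, and 68.5, 68.9 and 66.8 with All gRNA. All 6 targeted libraries lay above the No gRNA libraries. The log2 fold change was 0.32 ± 0.0873 with gRNA 4 (adjusted p = 0.0391) and 0.23 ± 0.0875 with All gRNA (adjusted p = 0.123, moderated test of limma). The gRNA 4 call was lost without gRNA 4 replicate 1, the highest library (0.21, adjusted p = 0.0816), and without any one No gRNA library (adjusted p from 0.0722 to 0.128). In MDA-MB-231 CAV2 had 137, 139 and 134 CPM with No gRNA, 190.4, 192 and 189 in set 1, and 215, 199.6 and 203 in set 2. CAV2 rose in both, by 0.48 ± 0.0407 in set 1 (adjusted p = 3.58e-06) and 0.62 ± 0.0400 in set 2 (adjusted p = 1.98e-07). Set 1 thus combined a fall of CAV1 with a rise of CAV2.

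The ratio of CAV1 to CAV2 within a library showed the same split. Per kilobase of transcript, wild type MDA-MB-231 libraries held 7.58 ± 0.213 CAV1 for each CAV2 (SD, n = 3), No gRNA libraries 4.33 ± 0.123, set 1 libraries 1.84 ± 0.116 and set 2 libraries 4.37 ± 0.141. SUM159 had 9.96 ± 0.338 in wild type of run 1, 6.66 ± 0.579 with No gRNA, 5.07 ± 0.202 with the pool and 4.75 ± 0.532 with gRNA 4. The 6 targeted SUM159 libraries all held more CAV2 relative to CAV1 than the No gRNA libraries (difference of the log2 ratio 0.44, p = 0.0119 in an exact two-sided permutation test of 84 regroupings, the smallest p it can give). In MDA-MB-231, where the sets differ, the same exact permutation test over 6 targeted libraries gave 0.61 (p = 0.298). Wild type SUM159 of run 2 had 4.06 ± 0.169, a value below that of every run 1 group.

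**Figure D3:**
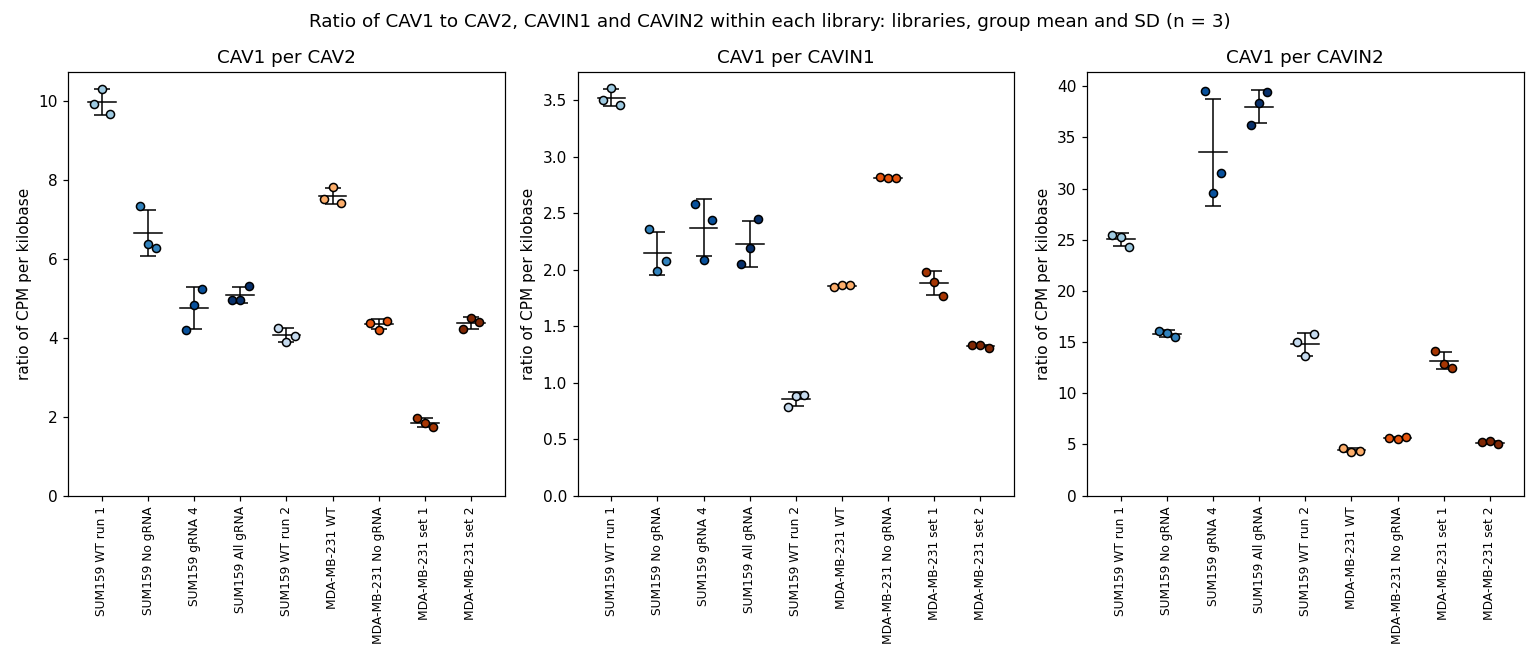
CAV1 CPM per kilobase divided by that of CAV2, CAVIN1 or CAVIN2 in each library (y axes from 0), for the 9 groups (x axis), with group mean and SD (n = 3). CAV1 per CAV2 is lowest in set 1, at 1.84, and CAV1 per CAVIN2 is highest in the targeted SUM159 groups, at 33.5 and 38.0.

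CAVIN1, the cavin without which caveolae do not form, had the largest rise of all members, in set 2. Its values in MDA-MB-231 were 256, 251 and 255 CPM with No gRNA, 228, 226 and 223 in set 1 and 823, 815 and 823 in set 2. Set 2 was 3.28-fold higher than No gRNA (log2 fold change 1.71 ± 0.0234, TREAT adjusted p = 3.30e-09), and set 1 was slightly lower (-0.17 ± 0.0288, moderated adjusted p = 0.000867). In SUM159 CAVIN1 stood at 207, 234 and 215 CPM with No gRNA, 166, 186 and 177 with gRNA 4, and 200.4, 188 and 175 with All gRNA. It fell by 0.32 on the log2 scale with gRNA 4 (SE 0.0649, moderated adjusted p = 0.00765) and by 0.22 with All gRNA (SE 0.0640, adjusted p = 0.0485). The All gRNA call did not hold when All gRNA replicate 2 or 3 or any No gRNA library was left out, with adjusted p from 0.0523 to 0.170.

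CAVIN2, a cavin that binds phosphatidylserine and gives caveolae their membrane curvature, was the member with the largest fall. In SUM159 it had 25.9, 25.0 and 24.7 CPM with No gRNA, 9.24, 11.2 and 11.7 with gRNA 4, and 9.69, 9.17 and 9.30 with All gRNA. The targeted libraries were 2.37-fold lower with gRNA 4 (log2 fold change -1.25 ± 0.0941, moderated adjusted p = 5.42e-06) and 2.68-fold lower with All gRNA (-1.42 ± 0.0958, moderated adjusted p = 2.12e-06). Both estimates lay beyond 1, the change that TREAT tests against. After adjustment over all genes tested, TREAT did not call either (adjusted p = 1.00 and 0.102). In MDA-MB-231 the values were 109, 109.5 and 108 CPM with No gRNA, 27.3, 28.3 and 27.1 in set 1, and 179.6, 176 and 183 in set 2. CAVIN2 was 3.93-fold lower in set 1 (-1.97 ± 0.0580, TREAT adjusted p = 9.35e-07) and 1.68-fold higher in set 2 (0.74 ± 0.0388, moderated adjusted p = 3.36e-08), which put the sets 2.72 ± 0.0560 apart on the log2 scale, the widest gap of the 8 members. Relative to CAV1 in the same library, CAVIN2 was lower in all 6 targeted SUM159 libraries (difference of the log2 ratio -1.16, exact permutation p = 0.0119), and in MDA-MB-231 the difference over both sets was -0.56 (p = 0.452).

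CAVIN3, the cavin linked to intracellular traffic of caveolar vesicles, was nearly flat in SUM159, where groups had means from 10.8 to 12.9 CPM. Its log2 fold changes there were -0.09 (95% interval -0.52 to 0.35) with gRNA 4 and -0.08 (-0.51 to 0.35) with All gRNA. A change within these intervals remains possible. Pooled over the 9 groups, CAVIN3 libraries of a group differed by an SD of 0.204 on the log2 scale. In MDA-MB-231 it had 36.3, 26.0 and 28.2 CPM with No gRNA, 21.7, 21.6 and 21.8 in set 1, and 64.4, 65.7 and 76.7 in set 2. CAVIN3 had the signs of CAVIN1: lower in set 1 (-0.46 ± 0.137, moderated adjusted p = 0.0214) and higher in set 2 (1.22 ± 0.112, adjusted p = 3.36e-06, TREAT adjusted p = 0.477). The set 1 call was lost without No gRNA replicate 1 or any set 1 library, with adjusted p from 0.0544 to 0.0697.

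EHD2, an ATPase that rings the caveolar neck and holds the pit at the membrane, moved little. Its log2 fold changes against No gRNA were -0.19 with gRNA 4, -0.06 with All gRNA, -0.25 in set 1 and 0.27 in set 2, and the moderated test called the last of these (adjusted p = 0.0326). Libraries of set 2 had 158, 161 and 155 CPM against 133, 139 and 127 with No gRNA, and the groups did not overlap. The call was lost without any one set 2 library or No gRNA replicate 1 or 3, with adjusted p from 0.0531 to 0.0987. In SUM159 the EHD2 libraries of a group were spread more widely than those of CAV1: All gRNA libraries had 211, 184 and 144 CPM.

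PACSIN2 and PACSIN3 are F-BAR proteins that bend membrane at the neck, the first in most tissues and the second mainly in muscle. PACSIN2 was the only member lower than No gRNA in both sets, with a log2 fold change of -0.36 ± 0.0626 in set 1 (moderated adjusted p = 0.000950) and -0.20 ± 0.0611 in set 2 (adjusted p = 0.0170). The set 2 call was lost without set 2 replicate 1 or 3 (-0.18 in both cases, adjusted p = 0.0595 and 0.0594). Against wild type PACSIN2 was at -0.04 in set 1 (adjusted p = 0.616) and 0.12 in set 2 (adjusted p = 0.186), so neither fall held with that control. Its values were 105, 102 and 106 CPM with No gRNA, 78.3, 80.9 and 84.7 in set 1, and 88.1, 92.3 and 87.6 in set 2. In SUM159 the log2 fold changes were 0.17 with gRNA 4 (adjusted p = 0.145) and 0.12 with All gRNA (adjusted p = 0.326). PACSIN3 rose in set 2 (0.81 ± 0.0796, adjusted p = 6.09e-06), from 33.9, 31.4 and 30.1 CPM with No gRNA to 56.6, 58.7 and 49.2. In the other 3 comparisons its log2 fold change was between -0.09 and 0.09, and no test called it.

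The control libraries themselves differed from wild type. In SUM159, No gRNA against wild type of the same run had 0 of 8 members called by TREAT (background 1.53%) and 5 by the moderated test, all lower (background 42.9%). CAV1 was the largest of these, from 646, 639.8 and 631 CPM in wild type to 335, 319 and 308, 2.00-fold lower (95% interval of the log2 fold change -1.11 to -0.90, adjusted p = 3.21e-08). CAV2, CAVIN1, CAVIN2 and PACSIN2 had log2 fold changes between -0.42 and -0.28. In MDA-MB-231, TREAT called CAVIN1, CAVIN2 and CAVIN3 lower in No gRNA than in wild type (background 3.60%), and the moderated test called 6 members, of which CAV1 and PACSIN3 were also lower and PACSIN2 higher (background 53.8%). CAVIN1 went from 678, 654 and 664 CPM in wild type to 256, 251 and 255 (log2 fold change -1.44 ± 0.0240, TREAT adjusted p = 2.52e-07), and CAVIN3 from 82.2, 71.5 and 78.4 to 36.3, 26.0 and 28.2 (-1.42 ± 0.110, TREAT adjusted p = 0.0376). ZEB1 was 1.51-fold higher in these No gRNA libraries than in wild type (log2 fold change 0.60 ± 0.0776, moderated adjusted p = 5.16e-05), and in SUM159 it differed by -0.12 ± 0.0895.

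Against wild type in place of No gRNA, 4 members of set 2 had the other sign. CAV1 in set 2 was -0.22 ± 0.0282, CAVIN2 -0.44 ± 0.0339, CAVIN3 -0.20 ± 0.0933 and PACSIN2 0.12 ± 0.0643 on the log2 scale. CAVIN1 kept its sign at 0.27 ± 0.0188, and TREAT called 0 of 8 (background 1.44%). The moderated test called CAV1 and CAVIN2 lower and CAV2, CAVIN1, EHD2 and PACSIN3 higher (background 36.3%). In set 1 the same comparison gave -1.59 ± 0.0356 for CAV1, -1.61 ± 0.0253 for CAVIN1, -1.88 ± 0.122 for CAVIN3 and -3.16 ± 0.0548 for CAVIN2, and TREAT called these 4 (background 8.42%), while the moderated test also called CAV2 and PACSIN3 (background 59.5%). CAV2 was above wild type in both sets, by 0.45 and 0.58 on the log2 scale. In SUM159 CAVIN2 was the 1 member that passed TREAT against wild type with gRNA 4 (-1.59 ± 0.0904, adjusted p = 0.00164, background 2.46%) and with All gRNA (-1.76 ± 0.0921, adjusted p = 0.000271, background 2.30%). The moderated test called CAV1, CAVIN1, CAVIN2 and PACSIN2 lower in both (background 46.8% with gRNA 4 and 48.7% with All gRNA), and CAV2 was at -0.10 and -0.19, on the other side of 0 from its value against No gRNA.

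**Figure D4:**
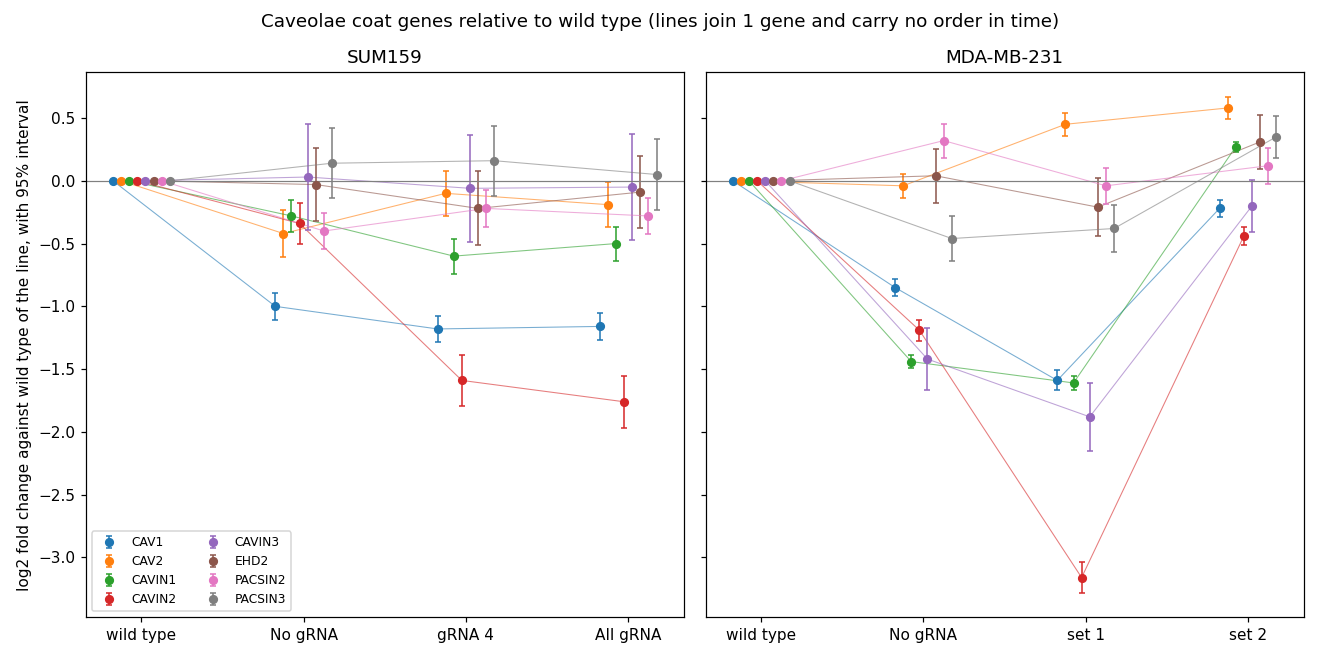
Log2 fold change of each coat gene against wild type of its line (y axis, with 95% interval) in No gRNA and the targeted groups (x axis), for SUM159 (left) and MDA-MB-231 (right). In MDA-MB-231, CAV1, CAVIN1, CAVIN2 and CAVIN3 lie between -0.85 and -3.16 in No gRNA and set 1 and between -0.44 and 0.27 in set 2, and in SUM159 CAV1 is already 2.00-fold lower in No gRNA.

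Set 2 was also set against set 1. TREAT called CAV1, CAVIN1, CAVIN2 and CAVIN3 higher in set 2 (background 3.07%), and the moderated test called 7 members, all but PACSIN2 (background 51.5%). ZEB1 itself differed by -0.18 ± 0.228 between the sets (moderated adjusted p = 0.528). Some markers of cell state differed between the sets too. CD44 differed little, with means of 2398 CPM in set 1 and 2291 in set 2, both above 1876 with No gRNA. VIM had a mean of 1321 CPM in set 1, 2387 with No gRNA and 2509.8 in set 2. KRT8 had 616 CPM in wild type, 265 with No gRNA, 242 in set 1 and 1012 in set 2, an order in which the first and last are high as for CAVIN1, and KRT18 had 631 in set 1 and 1103 in set 2. CDH1 (E-cadherin) went the other way, with 17.8 ± 7.03 (SD, n = 3) in set 1 and 3.01 ± 1.91 in set 2. The part of these markers in the coat differences was not tested. The part of guide, clone and state of the cultures in the gap between the sets was not tested, since the labels do not settle the guide.

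The response in MDA-MB-231 (mean of both sets) was next set against that in SUM159 (mean of gRNA 4 and All gRNA) as an interaction in a fit of all 27 libraries. TREAT called 0 of 8 members (background 0.982% of 17319 genes) and the moderated test 5 (background 25.6%). The response was higher in MDA-MB-231 for CAVIN1 (1.03 ± 0.0552), CAVIN2 (0.70 ± 0.0808), PACSIN3 (0.46 ± 0.128) and CAV2 (0.26 ± 0.0821) and lower for PACSIN2 (-0.44 ± 0.0782). For CAV1 it was 0.09 ± 0.0527 (adjusted p = 0.230), a value that averages a fall in set 1 with a rise in set 2. The sets also had opposite signs for CAVIN1 (-0.17 in set 1, 1.71 in set 2) and CAVIN2 (-1.97 and 0.74), and PACSIN3 was at 0.09 and 0.81. For CAVIN2, set 1 fell further than SUM159 did with gRNA 4 (-1.25) or All gRNA (-1.42). CAV2 and PACSIN2 kept the same sign in both sets. The SE measures the spread of libraries and not this gap between sets. Line and run cannot be told apart for the transduced groups.

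Wild type cells of both lines were sequenced together in run 2. SUM159 had less of 5 members by TREAT (background 28.2%): CAVIN2 was 16.3-fold lower (log2 fold change -4.03 ± 0.0670), CAVIN3 5.98-fold, CAV1 4.90-fold, CAV2 2.62-fold and CAVIN1 2.25-fold. The moderated test also called PACSIN3, lower (-0.60 ± 0.102), and EHD2, higher (0.98 ± 0.119, adjusted p = 1.48e-07), so 7 of 8 passed it (background 71.1%). EHD2 had 245, 253 and 244 CPM in SUM159 and 136, 139.7 and 104 in MDA-MB-231. With the SUM159 wild type set of run 1, the gap was smaller for CAV1, CAV2 and CAVIN2. CAV1 had means of 639 CPM in run 1 and 174 in run 2, against 851 in MDA-MB-231. CAV2 had 77.2 and 51.6 against 135, and CAVIN2 had 31.8 and 14.6 against 239. For CAVIN1 (264 and 296 against 666) and CAVIN3 (11.0 and 12.9 against 77.4) the gap was slightly wider. The run 1 set was not sequenced with MDA-MB-231. The culture media of the lines differ too, SUM159 being grown with insulin and hydrocortisone.

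SUM159 wild type cells were not alike in both runs. CAV1 stood at 646, 639.8 and 631 CPM in run 1 and 163, 177 and 181 in run 2, 3.68-fold lower (log2 fold change -1.88 ± 0.0464), and it was the 1 member TREAT called (background 6.35%). The moderated test called 6 (background 55.0%): CAV2 (-0.58), CAVIN2 (-1.12) and PACSIN2 (-0.53) were lower with CAV1, while CAVIN1 (0.17) and EHD2 (0.40) were higher. ZEB1 differed by -0.03 ± 0.0780. The fall of CAV1 between runs of untreated SUM159 was wider than in any comparison of targeted SUM159 cells with No gRNA, where CAV1 changed by at most 0.18. Targeted and No gRNA libraries of a line were sequenced in the same run.

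Whether the coat moved as a unit was described by the correlation of group means. Over 8 group means of log2 CPM, each centred on the mean of its line (wild type of run 2 left out for SUM159), CAVIN1 and CAVIN3 had r = 0.94, CAV1 and CAVIN2 0.91, and CAV1 and CAVIN1 0.83. The neck protein PACSIN3 had 0.84 with CAVIN1 and 0.80 with CAVIN3, but 0.44 with CAV1 and 0.46 with CAVIN2. Within SUM159 alone PACSIN3 had -0.71 with CAVIN1 and 0.02 with CAVIN3. There the group means hardly differed, with an SD of 0.08 for PACSIN3 and 0.04 for CAVIN3 (log2 scale). Libraries of a group differed by more, 0.128 and 0.204, so r within SUM159 says little for these 2 genes. EHD2 had 0.57 to 0.70 with CAV1, CAVIN1, CAVIN2 and CAVIN3. CAV2 stood apart, with r = -0.03 to CAV1 and -0.30 to CAVIN2, and PACSIN2 had -0.10 to CAVIN1. Between CAV1 and CAV2 the value was 0.53 within SUM159 and -0.28 within MDA-MB-231, and both genes were lower in SUM159 No gRNA than in wild type and in run 2 than in run 1. The values over both lines rest on 8 points that share libraries and a control, most of the range coming from MDA-MB-231. Values within a line rest on the groups of that line only. Within MDA-MB-231 alone CAV1 had 0.99 with CAVIN2, 0.97 with CAVIN3 and 0.90 with CAVIN1, and within SUM159 it had 0.79, 0.29 and 0.92. The spread between group means was widest for CAVIN2 (SD 0.87 in SUM159 and 1.38 in MDA-MB-231, log2 scale) and narrow for EHD2 (0.09 and 0.21), where libraries of a group differed by an SD of 0.155.

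**Figure D5:**
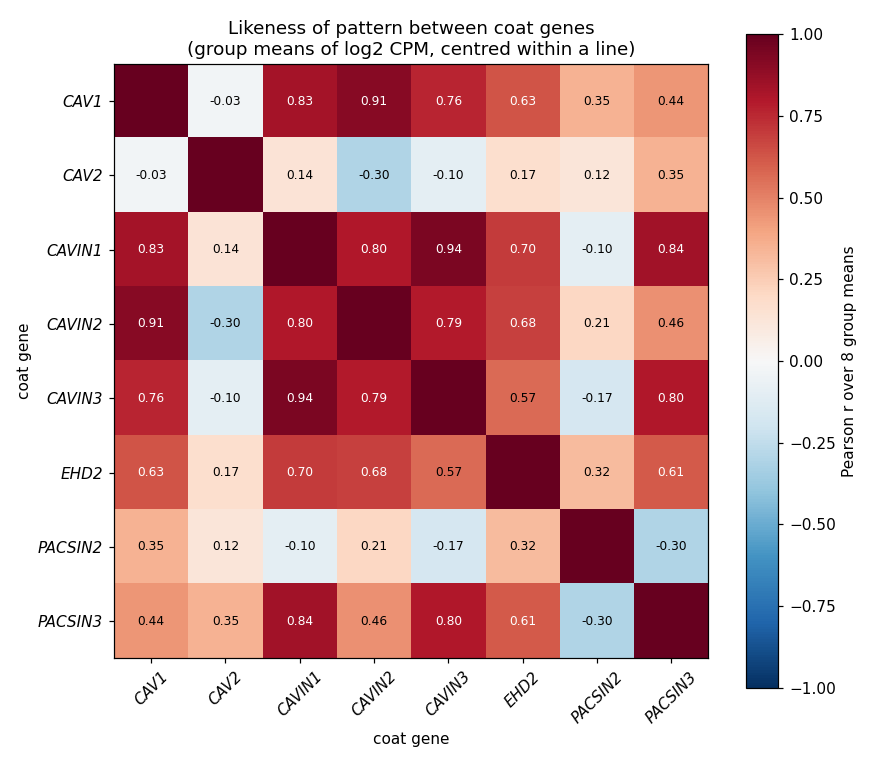
Pearson r between coat genes over 8 group means of log2 CPM, centred within each line (both axes list the genes, colour and number give r). Pairs among CAV1, CAVIN1, CAVIN2 and CAVIN3 have r from 0.76 to 0.94. PACSIN3 has 0.84 with CAVIN1 and 0.80 with CAVIN3, but 0.44 with CAV1 and 0.46 with CAVIN2. CAV2 has r between -0.30 and 0.35 with every other member.

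Other genes followed CAV1 and CAVIN1 more closely than the coat members did. Among 17318 genes ranked by the same r, those most like CAV1 were KIF11 (0.997), XPO1 (0.996), LIG1 (0.994), MCM6 (0.994) and NUP155 (0.994), while CAVIN2 was at rank 471 and the median gene had -0.12. KIF11 is a mitotic spindle motor, MCM6 and LIG1 act in DNA replication, and XPO1 and NUP155 act in nuclear transport. KIF11 had a mean of 143 CPM in wild type MDA-MB-231, 116 with No gRNA, 90.1 in set 1 and 137 in set 2. In SUM159 it had 141 in wild type of run 1, 104 with No gRNA, 101 with gRNA 4, 97.9 with All gRNA and 43.9 in wild type of run 2, which was left out of the ranking. The 5 genes most like CAVIN1 were SRRM1 (0.995), CNOT6 (0.992), TRIM28 (0.991), STARD7 (0.990) and TGFBRAP1 (0.989), with CAVIN3 at rank 263. The part of the replication genes in the CAV1 differences was not tested.

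Ratios to CAV1 within a library ask the same question of stoichiometry, and 14 were computed, with p-values not adjusted. Relative to CAV1 in SUM159, CAV2 rose and CAVIN2 fell, as given above. PACSIN2 rose too (difference of the log2 ratio 0.31, exact permutation p = 0.0119), and the other 4 gave p from 0.298 to 0.738. In MDA-MB-231, CAVIN1 (0.83, p = 0.0119), CAVIN3 (0.44, p = 0.0357) and PACSIN3 (0.51, p = 0.0476) were higher relative to CAV1 in the 6 targeted libraries by the same exact permutation test. The ranges of targeted and No gRNA libraries overlapped for CAVIN3 and PACSIN3, and with wild type as control the CAVIN3 difference was -0.14. Set 1 held 1.88 ± 0.103 CAV1 per CAVIN1, set 2 held 1.32 ± 0.0151 and No gRNA 2.81 ± 0.00579, per kilobase of transcript. Wild type libraries of MDA-MB-231 held 1.86 ± 0.00657, close to set 1.

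The muscle and neuronal relatives of the coat genes were scarce. CAV3, the muscle caveolin, was at 0 in all 5 SUM159 groups, as was PACSIN1, the neuronal pacsin, and CAVIN4, the muscle cavin, had group means from 0.313 to 2.63 CPM. Of 6 family members, 4 passed the filter on low counts in each line, and TREAT called 0 in every comparison with No gRNA. The TREAT background was 0.396% with All gRNA, 0.390% with gRNA 4, 1.47% in set 1 and 4.14% in set 2. EHD3, an endosomal relative of EHD2, fell in all 4 comparisons, by 0.48 with gRNA 4, 0.44 with All gRNA, 1.61 in set 1 and 1.60 in set 2 (moderated adjusted p from 0.00188 to 0.0203). In MDA-MB-231 EHD3 was scarce, with means of 2.28 CPM in the control, 0.757 in set 1 and 0.744 in set 2. Wild type MDA-MB-231 had a mean of 1.10 CPM, below the control, and its range overlapped those of both sets. EHD4 rose in both sets, by 0.63 and 0.48.

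Scaffold and raft proteins, cargo receptors and the clathrin coat were counted for comparison, and TREAT called 0 of each in the 4 comparisons with No gRNA. Over all genes TREAT called 0.396% with All gRNA, 0.390% with gRNA 4, 1.47% in set 1 and 4.14% in set 2. With shares this low, a count of 0 in such short lists does not set them apart from other genes. Over all genes the moderated test called 10.8% with All gRNA, 11.0% with gRNA 4, 37.8% in set 1 and 52.4% in set 2, and the counts below are to be read against these shares. Of the 9 scaffold and raft genes, the moderated test called 1 up and 1 down with All gRNA, 0 up and 1 down with gRNA 4, 3 up and 0 down in set 1, and 5 up and 2 down in set 2. ROR1, a receptor-like kinase that holds CAV1 and CAVIN1 together, fell with gRNA 4 (-0.87 ± 0.126) and All gRNA (-0.54 ± 0.120) in SUM159 but rose in set 2 (0.44 ± 0.107). DIAPH1, a formin that nucleates the actin to which caveolae are tethered, rose in both sets (0.61 and 0.92). Of the 5 cargo receptors, 4 were tested, and CD36, a fatty acid receptor, moved in opposite directions in SUM159: it had 19.3 CPM with gRNA 4, 2.24 with All gRNA and 7.17 with No gRNA (means).

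The 12 clathrin coat genes, which serve the other major endocytic route, had 0 called by the moderated test with All gRNA and 1 with gRNA 4 (10.8% and 11.0% of all genes). In set 1 the counts were 4 up and 2 down (37.8% of all genes in either direction) and in set 2 7 up and 0 down (52.4%). The totals in either direction were near the shares over all genes. In set 2 the calls were all higher, whereas over all genes 4293 were higher and 3942 lower. The median log2 fold changes of the clathrin genes were 0.01 with All gRNA, 0.00 with gRNA 4, 0.02 in set 1 and 0.24 in set 2. Over all genes tested the median was -0.01 in both sets. CLTB, a clathrin light chain, rose in both sets (0.63 and 1.12), and AP2S1, the small subunit of the AP2 adaptor, fell in set 1 (-0.45 ± 0.0505).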

How the data were processed

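RNA libraries were sequenced as single-end reads and quantified by the authors with Salmon on GRCh38. The deposited files hold gene-level estimated counts, scaled by the authors for transcript length and library size (tximport, lengthScaledTPM), with replicates kept apart. The Salmon version, annotation and strand setting are not given in the sources used here, so reads shared with overlapping or antisense transcripts could not be told apart. Totals lay between 15461200 and 21473757 estimated counts, and replicate libraries had r from 0.982 to 0.987 with 0 identical pairs. Of 57165 identifiers, 56347 matched a symbol.

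Genes were kept with a minimum count of 10 (filterByExpr), scaled by TMM and fitted with voom and limma (R 4.3.3, limma 3.58.1, edgeR 4.0.16, voom offset 0.5) over the 12 libraries of a line. TREAT tested for a log2 fold change beyond 1, and the moderated test for a difference from 0, both with Benjamini-Hochberg adjusted p under 0.05 over all genes tested. The interaction, the wild type lines and the runs were fitted over all 27 libraries. Ratios to CAV1 were tested by exact permutation, 6 targeted against 3 No gRNA libraries. Pattern likeness used log2 CPM with a prior count of 2. The code was tested on simulated counts. Alternatives included edgeR's quasi-likelihood test and DESeq2 1.42.0 on rounded counts, other scalings, filters, controls and libraries left out.

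All 8 members were named. From each further list, genes were named when called by TREAT in a targeted comparison, or as the widest rise and fall among those called by the moderated test in both targeted comparisons of a line. The 5 genes most like CAV1 and the 5 most like CAVIN1 were named too. Members and lists were chosen with earlier results of these data known. PECAM1, VIM and the marker sums served as checks of the labelled cell type. The methods call replicates individual clones, and where clones share a culture the p-values measure only the spread between these samples. Counting error is covered by the fits only as far as replicates show it.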

Additional observations from a re-analysis of the deposited data

Results flagged for a closer look

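The response to the targeting guides differed between the lines for 5 members, by the interaction test of limma over 27 libraries (MDA-MB-231 minus SUM159, log2 scale), where 25.6% of 17319 genes passed the same test. The difference was 1.03 for CAVIN1 (adjusted p = 3.74e-12), 0.70 for CAVIN2 (7.92e-07), 0.46 for PACSIN3 (0.0101), 0.26 for CAV2 (0.0232) and -0.44 for PACSIN2 (0.000178). The MDA-MB-231 side averages set 1 and set 2, which had opposite signs for CAVIN1 (-0.17 and 1.71) and CAVIN2 (-1.97 and 0.74). PACSIN3 was at 0.09 in set 1 and 0.81 in set 2. Run and line cannot be told apart in this comparison.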

How the results depend on the processing

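Same-numbered libraries did not deviate together (r from -0.06 to 0.05 in SUM159 and -0.04 to 0.03 in MDA-MB-231, 0 of 18 pairs over 0.1 in each line), so replicate numbers were not taken as pairs. With a replicate block, the moderated test called 1 member in place of 2 with All gRNA and 2 in place of 4 with gRNA 4 (9.42% and 9.57% of all genes), where CAVIN1 (All gRNA, adjusted p = 0.0736), CAV1 (gRNA 4, 0.0673) and CAV2 (gRNA 4, 0.0548) were lost. The block changed no other call of a member.

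The count of members called by TREAT was 0 with All gRNA, 0 with gRNA 4, 1 in set 1 and 1 in set 2. In that order, edgeR's quasi-likelihood test against 0 called 2, 4, 6 and 8 (11.0%, 11.2%, 37.2% and 51.9% of all genes), DESeq2 against 0 called 3, 4, 7 and 8 (15.5%, 14.2%, 38.0% and 51.6%), TREAT at a fold of 1.2 called 1, 1, 3 and 6 (2.84%, 3.16%, 14.6% and 30.6%), and wild type as control gave 1, 1, 4 and 0 (2.30%, 2.46%, 8.42% and 1.44%). With All gRNA, edgeR's glmTreat (0.528%) and the fit of all 27 libraries (0.370%) called 1 each. The moderated test called 2, 4, 6 and 8 members. In that order, glmTreat called 1, 0, 1 and 1 (0.528%, 0.580%, 1.86% and 5.90% of all genes), and TREAT at a fold of 1.2 called 1, 1 and 3 in the first 3. No filter on low counts gave 1 with All gRNA and 2 with gRNA 4 (4.17% and 4.21%), and a fit of the 6 libraries compared gave 1 and 2 (8.03% and 8.57%). With All gRNA, the fit of 27 libraries (13.0%) and wild type as control (48.7%) gave 4 each. With 1 library left out, the moderated test called 1 to 2 with All gRNA, 2 to 3 with gRNA 4, 5 to 6 in set 1 and 6 to 8 in set 2, and TREAT 0 to 0, 0 to 0, 1 to 1 and 1 to 1. The libraries behind the lost calls are named beside each gene, and CAVIN2 kept its moderated call in every such fit.

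Wild type as control turned the sign of CAV2 (-0.19), PACSIN2 (-0.28) and PACSIN3 (0.05) with All gRNA, CAV2 (-0.10) and PACSIN2 (-0.22) with gRNA 4, PACSIN3 (-0.38) in set 1, and CAV1 (-0.22), CAVIN2 (-0.44), CAVIN3 (-0.20) and PACSIN2 (0.12) in set 2. It also turned the ratio to CAV1 of CAVIN1 in SUM159 (0.62) and of CAVIN3 (-0.14) and PACSIN2 (0.94) in MDA-MB-231. Members near 0 turned on single libraries. With All gRNA, leaving out 1 library gave -0.25 to 0.04 for CAVIN3, -0.18 to 0.10 for EHD2 and -0.18 to 0.02 for PACSIN3, all positive without All gRNA replicate 3. With gRNA 4 it gave -0.26 to 0.14 for CAVIN3, positive without gRNA 4 replicate 1, and -0.07 to 0.09 for PACSIN3, negative without gRNA 4 replicate 2 or 3 or No gRNA replicate 2. Library totals gave -0.01 for PACSIN3 with gRNA 4. The cause was not tested. The 32 interaction values under alternatives kept direction and call. With 3 libraries per group, the intervals of CAVIN3, EHD2 and PACSIN3 in SUM159 span both signs.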
